A study of Homo sapiens with 8 samples.

Results

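The let-7 and miR-98 family is a group of mature miRNAs that carry the same seed, the bases at positions 2 to 8 through which a miRNA recognises its target mRNAs. The 9 members were chosen by name (hsa-let-7a-5p, hsa-let-7b-5p, hsa-let-7c-5p, hsa-let-7d-5p, hsa-let-7e-5p, hsa-let-7f-5p, hsa-let-7g-5p, hsa-let-7i-5p and hsa-miR-98-5p), and they are 9 of the 1780 mature miRNAs in the count table of all libraries. The rule used no measured value. All 9 had counts in every library. They are written below without the species prefix.

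Small RNA was sequenced from DLD1 and HT29, established human colorectal carcinoma (CRC) cell lines, in order to compare cells of multicellular spheroids (MCS) with cells of monolayers (2D). RNA was taken on day 6 of culture in both conditions. DLD1 was grown in RPMI from 35000 cells per flask in 2D and 7000 cells per well in MCS, and HT29 in DMEM from 100000 cells per flask and 3500 cells per well. Wells for MCS were coated with agarose, and both media held 10% fetal bovine serum. The 4 groups (DLD1 2D, DLD1 MCS, HT29 2D and HT29 MCS) had 2 libraries each, which the labels name biological replicates 1 and 2. DLD1 libraries were made with kit version V3 and HT29 libraries with V2, so that kit, medium and cell line cannot be told apart. No other treatment or genetic change was named for any group. The miRNA tables hold no marker gene with which the identity of the lines could be checked.

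The let-7 miRNAs are loaded into Argonaute proteins and repress mRNAs with sites that match the seed, among them those of RAS genes, MYC and HMGA2. Their precursors are bound by LIN28 proteins, which block their processing, and mature let-7 is typically high in differentiated cells and low in stem cells and many tumours. In humans they are made from several hairpins on different chromosomes, some of which lie together in a cluster and are transcribed as a common primary transcript.

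The mature sequences, from RefSeq, are given because the members differ by few bases, so that the values of close members depend on how reads were assigned. The seed is in capitals, and every sequence is written from 5′ to 3′.
let-7a-5p: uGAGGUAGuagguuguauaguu
let-7b-5p: uGAGGUAGuagguugugugguu
let-7c-5p: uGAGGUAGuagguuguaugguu
let-7d-5p: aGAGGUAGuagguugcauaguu
let-7e-5p: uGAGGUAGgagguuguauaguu
let-7f-5p: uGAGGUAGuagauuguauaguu
let-7g-5p: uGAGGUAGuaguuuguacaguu
let-7i-5p: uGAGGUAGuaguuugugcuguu
miR-98-5p: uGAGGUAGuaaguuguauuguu

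All 9 sequences were 22 bases long and had the same seed. Counted from 1 at the 5′ end and with the base of let-7a-5p first, let-7c-5p differed from let-7a-5p by A19G, let-7e-5p by U9G and let-7f-5p by G12A. Differences at 2 positions set let-7b-5p (A17G and A19G), let-7d-5p (U1A and U16C), let-7g-5p (G12U and U18C) and miR-98-5p (G11A and A19U) apart from let-7a-5p, and let-7i-5p differed from it at 4 positions. The pair let-7b-5p and let-7c-5p differed at 1 position. How the authors counted reads that match several mature miRNAs is not given in the sources used here.

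The members come from 12 hairpins. In GRCh37 coordinates, MIRLET7A1 (chr9:96938234-96938325), MIRLET7F1 (chr9:96938629-96938715) and MIRLET7D (chr9:96941116-96941202) lie on the plus strand in exons of the non-coding transcript MIRLET7A1HG. MIRLET7A3 (chr22:46508629-46508702) and MIRLET7B (chr22:46509566-46509648) lie on the plus strand in exons of MIRLET7BHG. MIRLET7F2 (chrX:53584153-53584235) and MIR98 (chrX:53583184-53583302) lie on the minus strand in introns of HUWE1, a ubiquitin ligase gene. MIRLET7A2 (chr11:122017229-122017301, minus strand) is in an intron of MIR100HG, and MIRLET7C (chr21:17912143-17912236, plus strand) is in an exon of MIR99AHG. MIRLET7E (chr19:52196039-52196117, plus strand) is in an intron of SPACA6, MIRLET7G (chr3:52302292-52302379, minus strand) in an intron of WDR82 and MIRLET7I (chr12:62997466-62997550, plus strand) in an intron of MIRLET7IHG and in an exon of a non-coding transcript without a name. The mature let-7a-5p therefore has 3 possible sources and let-7f-5p has 2, which the mature count does not separate.

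The libraries held between 10495634 and 26211524 counts assigned to miRNAs. HT29 libraries of the same replicate number resembled each other, and the abundant miR-10a-5p took 47.3% and 38.5% of the counts in replicate 1 of 2D and MCS but 10.6% and 6.57% in replicate 2. In DLD1 its share lay between 15.2% and 19.0%. Levels are given below as normalized CPM (counts scaled by the library total, as CPM, and divided by the upper quartile factor of the library), which are comparable between libraries of a cell line. The factors were between 0.746 and 1.17 in DLD1 and between 0.522 and 1.66 in HT29. A miRNA is called when its fold change is at least 1.5 and its p, adjusted by Benjamini-Hochberg over all tested miRNAs of the cell line in edgeR's quasi-likelihood test, is under 0.05. With 2 libraries against 2, the smallest 2-sided p of an exact permutation test is 0.3333, so that no such test could reach 0.05.

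As a share of all miRNA counts, the family was larger in DLD1 MCS than in DLD1 2D. It made up 5.84% and 7.38% of the counts in the 2D libraries and 10.0% and 9.44% in the MCS libraries. In HT29 it made up 2.80% and 2.86% in 2D and 3.07% and 3.37% in MCS. Both MCS libraries were above both 2D libraries in each cell line, and the 95% Wilson intervals of these shares, which cover counting error only, were all narrower than the distance between the cultures. On the normalized scale the summed level in DLD1 was 57933 ± 7431 CPM in 2D and 111620 ± 21123 CPM in MCS (SD, n = 2), a ratio of 1.93 of the culture means, and leaving out each library in turn gave a log2 ratio between 0.74 and 1.13. In HT29 the normalized sums were 53594 and 17199 CPM in 2D and 41432 and 21663 CPM in MCS, so that the cultures overlapped on this scale, and the log2 ratio of the means was -0.17. No test was run on either sum.

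In DLD1 cells, 4 of the 9 members were called, and all 4 were up-regulated in MCS. These were let-7a-5p, let-7b-5p, let-7c-5p and let-7f-5p. Of all 346 miRNAs tested in DLD1, 41.3% were called and 29.8% were called as higher in MCS, so that the members' share lay near the former. Both MCS libraries were above both 2D libraries for 5 of the 9 members, against 45.4% of all tested miRNAs. The fitted change was positive for 9 of 9 members, against 61.3% of all tested miRNAs, and its median was 0.48 on the log2 scale for the members and 0.23 for all tested miRNAs. For let-7d-5p, let-7e-5p, let-7i-5p and miR-98-5p the sign turned under other scalings, as described below.

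The change of let-7b-5p had the smallest adjusted p in the family, and its log2 fold change lay close to that of let-7c-5p, which was the larger without 2D replicate 2 (2.09 against 2.02) and without MCS replicate 1 (2.06 against 1.95). Its levels were 3770 and 3971 CPM in 2D and 16320 and 16791 CPM in MCS, which gives means of 3870 ± 142 and 16556 ± 333 (SD, n = 2). The MCS libraries thus lay far above the 2D libraries, with a log2 fold change of 2.10 (SE 0.27, edgeR adjusted p = 1.96e-12). By counts it moved from ranks 37 and 35 among the miRNAs of the 2D libraries to ranks 12 and 15 in MCS. The call stood under all 10 other scalings, tests, filters and spread estimates (edgeR or DESeq2 adjusted p between 1.48e-23 and 0.0215), and without each library in turn its log2 fold change was between 1.93 and 2.02.

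The level of let-7a-5p was 10655 and 13782 CPM in 2D and 31221 and 41487 CPM in MCS. The cultures did not overlap, and the means were 12219 ± 2211 and 36354 ± 7259 (SD, n = 2). Its log2 fold change was 1.57 (SE 0.29, edgeR adjusted p = 1.64e-06), and it held the 6th place by counts in both MCS libraries against the 15th and 13th in 2D. It was called under 9 of the 10 alternatives. The exception was the fit of all 8 libraries together, in which the wider spread of HT29 enters the error (edgeR adjusted p = 0.303).

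The rarest member, let-7c-5p, had 155 and 316 counts in 2D and 673 and 702 in MCS. Its levels were 8.84 and 10.6 CPM in 2D and 36.0 and 46.0 CPM in MCS, and the cultures did not overlap. The log2 fold change was 2.07 (SE 0.33, edgeR adjusted p = 3.42e-08). It was called under 8 of the 9 alternatives that tested it, and the call was lost in the fit of all 8 libraries (edgeR adjusted p = 0.104). Under a filter of 10 CPM in every library let-7c-5p was not tested, since it had 9.80 CPM before scaling in 2D replicate 1. In DLD1 the count of let-7c-5p was 0.234% and 0.268% of that of let-7b-5p in 2D and 0.220% and 0.274% in MCS, so that this proportion overlapped between the cultures while both levels rose. In HT29 the proportion was 0.452% and 0.196% in 2D and 0.391% and 0.280% in MCS. Relative to let-7a-5p in DLD1, the let-7c-5p count was 0.0829% and 0.0771% in 2D and 0.115% and 0.111% in MCS, without overlap. The sequence of let-7c-5p differs at a single base from that of let-7b-5p and from that of let-7a-5p, and both were far more abundant. The part of misassigned reads in the let-7c-5p counts was not tested.

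The call of let-7f-5p was the least firm. Its levels were 15063 and 16416 CPM in 2D and 22033 and 28880 CPM in MCS, means of 15739 ± 957 and 25456 ± 4842 (SD, n = 2). The log2 fold change was 0.69 (SE 0.29, edgeR adjusted p = 0.0406). It was called under 4 of the 10 alternatives and under none of the 4 other scalings, which gave log2 fold changes between 0.23 and 0.57. Without 2D replicate 1, 2D replicate 2 or MCS replicate 2 its edgeR adjusted p was 0.352, 0.411 and 0.112, respectively.

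The other 5 members were not called in DLD1. The abundant let-7g-5p had levels of 13529 and 18077 CPM in 2D and 17453 and 26689 CPM in MCS, with a log2 fold change of 0.48 (SE 0.28, edgeR adjusted p = 0.162), and its cultures overlapped. The level of let-7i-5p was 7101 ± 521 CPM in 2D and 7513 ± 1582 CPM in MCS (SD, n = 2), and the log2 fold change was 0.08 (SE 0.26). The level of let-7d-5p was 1385 ± 166 and 1579 ± 83.5 CPM, that of miR-98-5p 1758 ± 207 and 1998 ± 482 CPM and that of let-7e-5p 48.6 ± 9.34 and 50.7 ± 3.71 CPM, in 2D and MCS respectively. Their log2 fold changes were 0.19, 0.19 and 0.06, with edgeR adjusted p-values of 0.513, 0.525 and 0.876. In RNA from a whole culture, a change in the level per cell and a change in the share of cells that hold a miRNA cannot be told apart.

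**Figure D1:**
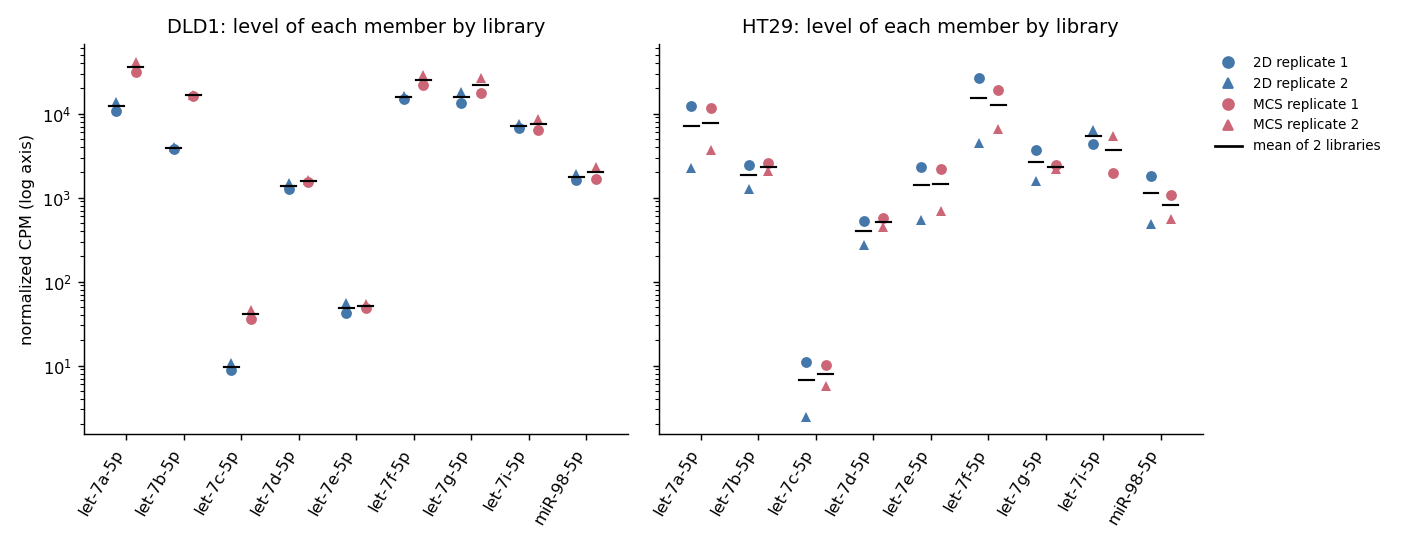
Normalized CPM of the 9 members in each of the 8 libraries, on a log axis, with DLD1 on the left and HT29 on the right. Circles are replicate 1, triangles replicate 2, and black lines the mean of the 2 libraries of a culture. In DLD1 both MCS libraries of let-7a-5p, let-7b-5p, let-7c-5p, let-7d-5p and let-7f-5p stand above both 2D libraries. In HT29 the libraries of the cultures overlap for each of the 9 members.

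The size of the DLD1 changes depended on the scaling. Relative to the upper quartile factors used, the median change of all tested miRNAs was lower by 0.12 (RLE), 0.21 (TMM), 0.37 (library totals) and 0.46 (an upper quartile over tested miRNAs alone) on the log2 scale. Under these scalings the log2 fold change of let-7a-5p was between 1.11 and 1.44, that of let-7b-5p between 1.65 and 1.98 and that of let-7c-5p between 1.61 and 1.94, and all 3 were called under each. For let-7d-5p the log2 fold change was between -0.25 and 0.07, for let-7e-5p between -0.38 and -0.06, for let-7i-5p between -0.39 and -0.05 and for miR-98-5p between -0.28 and 0.05. Over all tested miRNAs, 103 were called as higher and 40 as lower in MCS with the factors used, while 49 and 93 were so called with an upper quartile over tested miRNAs alone and 60 and 83 with library totals.

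**Figure D2:**
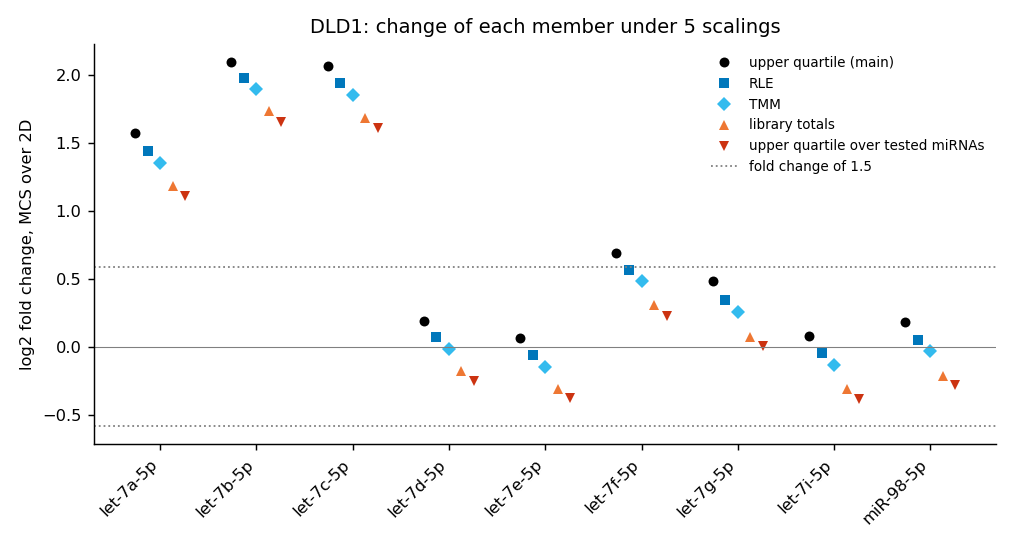
Log2 fold change (MCS over 2D) of each member in DLD1 under the upper quartile factors used and 4 other scalings. Dotted lines mark a fold change of 1.5. The 3 members let-7a-5p, let-7b-5p and let-7c-5p stay above the upper line under every scaling shown, let-7f-5p crosses it, and 4 members move across 0.

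The make-up of the family does not depend on any scaling factor, since every member of a library is divided by the same total. In DLD1, let-7a-5p made up 20.2% and 21.8% of the family counts in 2D and 32.3% and 32.8% in MCS. The share of let-7b-5p was 7.16% and 6.28% in 2D and 16.9% and 13.3% in MCS, and the mean share of let-7c-5p was 0.0168% and 0.0368%, respectively. The shares of the other 6 members were smaller in each MCS library than in each 2D library. That of let-7g-5p was 27.1% ± 2.07 in 2D and 19.6% ± 2.15 in MCS, that of let-7f-5p 27.3% ± 1.85 and 22.8% ± 0.0222, and that of let-7i-5p 12.3% ± 0.679 and 6.72% ± 0.146 (SD, n = 2). Those of miR-98-5p, let-7d-5p and let-7e-5p were 3.04%, 2.39% and 0.0835% in 2D and 1.78%, 1.43% and 0.0459% in MCS. Shares sum to a whole, so that a larger share of some members makes the others smaller. In HT29 the shares of 7 members overlapped between the cultures, while that of let-7c-5p was higher and that of miR-98-5p lower in each MCS library.

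The order of the levels in DLD1 2D was let-7g-5p, let-7f-5p, let-7a-5p, let-7i-5p, let-7b-5p, miR-98-5p, let-7d-5p, let-7e-5p and let-7c-5p. In DLD1 MCS it was let-7a-5p, let-7f-5p, let-7g-5p, let-7b-5p, let-7i-5p, miR-98-5p, let-7d-5p, let-7e-5p and let-7c-5p. In both cultures the neighbours let-7f-5p and let-7g-5p had overlapping libraries, and all other neighbours were separated. In HT29 the order of the means was let-7f-5p, let-7a-5p, let-7i-5p, let-7g-5p, let-7b-5p, let-7e-5p, miR-98-5p, let-7d-5p and let-7c-5p in both cultures. There the libraries of let-7c-5p were separated from those of let-7d-5p in both cultures and those of let-7i-5p from those of let-7g-5p in 2D, and the other neighbours overlapped.

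**Figure D3:**
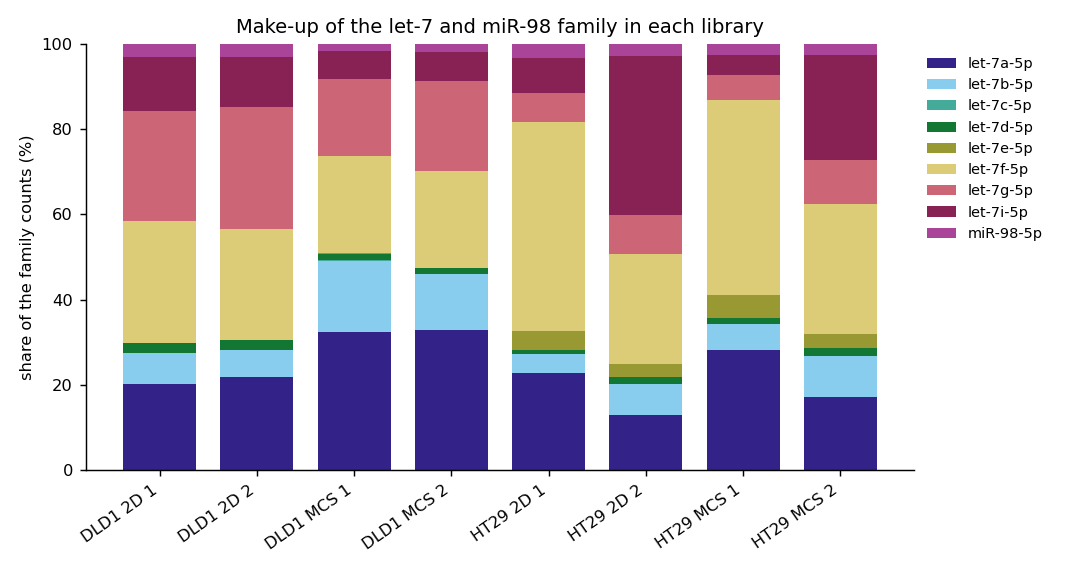
Share of each member in the summed counts of the family, in percent, for each of the 8 libraries. In DLD1 the shares of let-7a-5p and let-7b-5p are larger in MCS, and in HT29 the shares of let-7i-5p and let-7f-5p differ more between replicates than between cultures.

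Ratios of counts within a library need no scaling factor either. The pairs named here were chosen after their values were seen, so that they are a description. In DLD1 the ratio of let-7b-5p to let-7d-5p was 2.97 and 2.64 in 2D and 10.7 and 10.2 in MCS. In HT29 this ratio was 4.60 and 4.63 in 2D and 4.60 and 4.55 in MCS, although the levels of both members differed between the HT29 replicates. The ratio of let-7a-5p to let-7f-5p, whose hairpins lie side by side on chromosome 9, was 0.707 and 0.840 in 2D and 1.42 and 1.44 in MCS of DLD1. In HT29 it was 0.463 and 0.504 in 2D and 0.613 and 0.563 in MCS, so that it was higher in MCS in both cell lines and by a smaller factor in HT29.

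**Figure D4:**
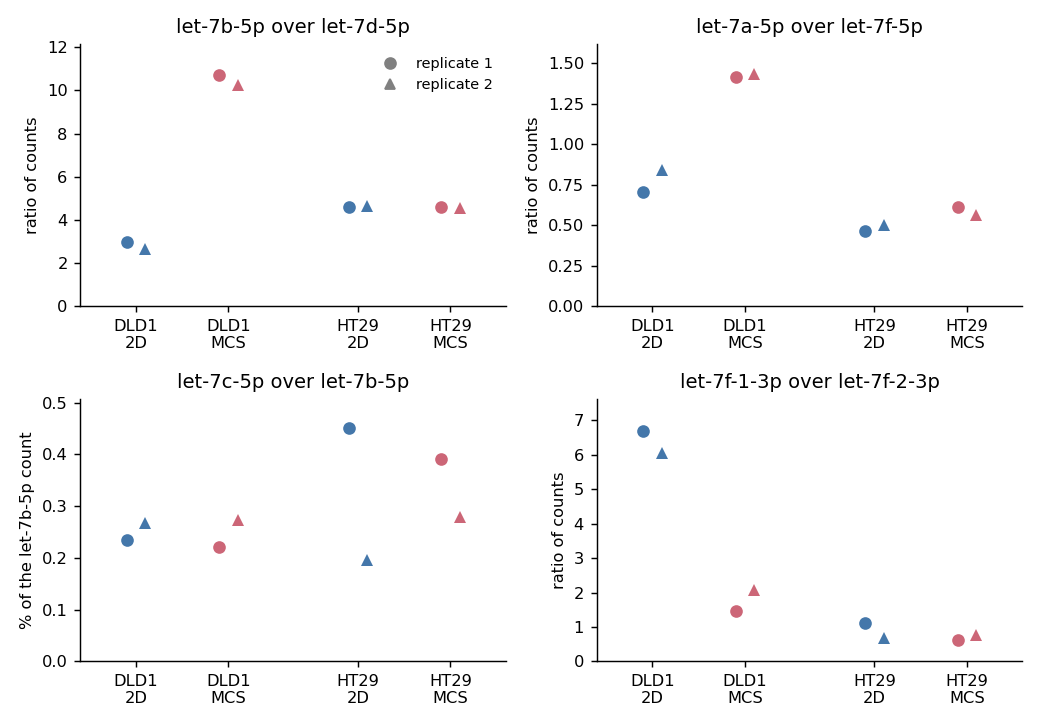
Ratios of counts within each library, by cell line and culture, with circles for replicate 1 and triangles for replicate 2. The ratio of let-7b-5p to let-7d-5p lies at 10.2 and 10.7 in DLD1 MCS and between 4.55 and 4.63 in all HT29 libraries, the count of let-7c-5p as a percentage of let-7b-5p overlaps between the cultures, and the ratio of let-7f-1-3p to let-7f-2-3p is 1.47 and 2.08 in DLD1 MCS against 6.67 and 6.05 in 2D.

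In HT29 cells none of the members was called. There 8 of the 9 members were tested, since let-7c-5p did not reach a mean of 10 CPM, and 0 of 8 had an unadjusted edgeR p under 0.05, against 3.99% of all 301 tested miRNAs. Of all tested miRNAs 0% were called by edgeR's quasi-likelihood test. With DESeq2 and with edgeR's exact test also 0 of 8 members were called, while 15 and 5 of the 301 miRNAs were. The libraries of the cultures overlapped for all 8 tested members, whereas they did not overlap for 28.6% of all tested miRNAs. Fitted changes were positive for 4 of the 8 members, with edgeR adjusted p-values between 0.977 and 0.990.

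The larger of the replicate gaps in 2D and MCS, on the log2 scale of the normalized levels, exceeded the gap between the culture means for 9 of 9 members in HT29 and for 5 of 9 in DLD1. Both replicate gaps exceeded it for 6 members in HT29, the exceptions being let-7b-5p, let-7d-5p and let-7i-5p, and for 3 in DLD1. These counts were not made over all tested miRNAs, so that they do not set the family apart. Levels of let-7a-5p were 12189 and 2233 CPM in 2D and 11624 and 3725 CPM in MCS, a log2 fold change of 0.09 (SE 1.00). Levels of let-7f-5p were 26333 and 4427 CPM in 2D and 18963 and 6613 CPM in MCS, with a log2 fold change of -0.27 (SE 1.02). Replicate 1 was above replicate 2 in both cultures for both miRNAs, and the ratio of the replicates in 2D was 5.46 for let-7a-5p and 5.95 for let-7f-5p. The levels of let-7i-5p ran the other way, with 4335 and 6410 CPM in 2D and 1955 and 5368 CPM in MCS, and its log2 fold change was -0.55 (SE 0.64). It was the single member with the higher normalized level in replicate 2 of both cultures, whereas without scaling 4 members were higher there, let-7b-5p, let-7d-5p and let-7g-5p besides let-7i-5p. From the other arm of its hairpin, let-7i-3p had 28.3 and 126 CPM in 2D and 18.2 and 94.8 CPM in MCS.

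For let-7b-5p the HT29 levels were 2423 and 1255 CPM in 2D and 2599 and 2046 CPM in MCS, with a log2 fold change of 0.34 (SE 0.50). For let-7d-5p it was 0.35 (SE 0.50), for let-7e-5p 0.03 (SE 0.91), for let-7g-5p -0.18 (SE 0.55) and for miR-98-5p -0.48 (SE 0.77). With these standard errors, a change of the size of that of let-7f-5p in DLD1 (0.69) was not detectable for any of the 8 members. The replicate gap of the normalized level, as the median over the 9 members in both cultures, was 1.34 on the log2 scale in HT29 and 0.30 in DLD1, and without scaling it was 0.66 and 0.27. The biological coefficient of variation of all tested miRNAs was 0.521 in HT29 and 0.193 in DLD1. Without scaling, the replicate gap of let-7a-5p was smaller, with 6367 and 3707 CPM in 2D and 8618 and 5794 CPM in MCS. That of let-7i-5p was larger, with 2264 and 10642 CPM in 2D and 1450 and 8350 CPM in MCS. That of let-7b-5p turned its direction, with 1266 and 2083 CPM in 2D and 1927 and 3183 CPM in MCS.

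**Figure D5:**
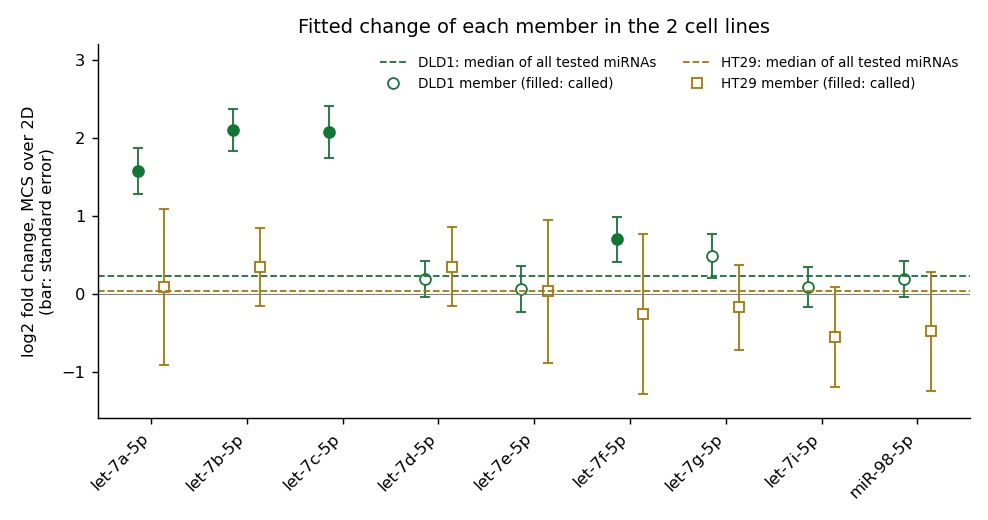
Log2 fold change (MCS over 2D) with its standard error for each member in DLD1 (circles) and HT29 (squares), with filled symbols for called members and dashed lines at the median of all tested miRNAs of each cell line (0.23 and 0.03). In DLD1 4 members are called, and in HT29, where let-7c-5p was not tested, 0 are and the error bars are wider.

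The interaction of cell line and culture, fitted to the 8 libraries together, tests whether the response differed between the lines. Of 250 miRNAs tested, 0% had an adjusted p under 0.05, and so had 0 of 8 members. The unadjusted edgeR p was under 0.05 for 1 of 8 members, let-7b-5p, against 9.20% of all tested miRNAs. The difference of its log2 fold changes, HT29 minus DLD1, was -1.78 (SE 0.51, edgeR adjusted p = 0.208). DESeq2 called this difference (adjusted p = 0.00531), and with library totals its adjusted p was 0.999. For let-7a-5p the difference was -1.48 (SE 1.16, edgeR adjusted p = 0.754), and without HT29 2D replicate 1 it was 0.24. With the replicate number as a block in the fit, the edgeR adjusted p of the difference was 0.0049 for let-7b-5p and 0.0278 for let-7a-5p. The share of all 250 tested miRNAs so called with DESeq2 or under the block was not counted. These calls therefore do not set the members apart.

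The share of single members also differed between the cell lines, together with kit and medium. In all 4 HT29 libraries let-7e-5p made up between 3.11% and 5.30% of the family, while its mean share in DLD1 was 0.0835% in 2D and 0.0459% in MCS. As a percentage of the let-7a-5p count, let-7e-5p was between 18.4% and 23.9% in HT29 and between 0.129% and 0.400% in DLD1. The share of let-7g-5p was 8.05% and 8.06% in HT29 2D and MCS, in the means, and 27.1% and 19.6% in DLD1. These differences were not tested.

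The passenger (3p) arms come from the same hairpins as the members. How closely their levels follow the output of a hairpin was not tested. Of 11 named 3p arms, 10 were in the table, 7 were tested in DLD1 and 8 in HT29. In DLD1 2 of the 7 were called, both up-regulated in MCS, against 41.3% of all tested miRNAs called and 29.8% called as higher. In HT29 0 of 8 were called, with 0 at an unadjusted edgeR p under 0.05, against 3.99% of all tested miRNAs. The median log2 fold change of the tested arms was 0.36 in DLD1 and -0.27 in HT29, against 0.23 and 0.03 for all tested miRNAs.

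In DLD1, let-7a-3p, which is shared by MIRLET7A1 and MIRLET7A3, had 375 and 396 CPM in 2D and 645 and 732 CPM in MCS. Its log2 fold change was 0.84 (SE 0.23, edgeR adjusted p = 0.00136), smaller than that of let-7a-5p, and without 2D replicate 1 or 2D replicate 2 the adjusted p was 0.0604 and 0.0639. It was called under 7 of the 10 alternatives. The ratio of let-7a-5p to let-7a-3p was 28.4 and 34.8 in 2D and 48.4 and 56.7 in MCS. For let-7b-3p the levels were 227 and 275 CPM in 2D and 318 and 423 CPM in MCS, with a log2 fold change of 0.56 (edgeR adjusted p = 0.0456), and it was not called since its fold change was 1.47. The ratio of let-7b-5p to let-7b-3p was 16.6 and 14.4 in 2D and 51.3 and 39.7 in MCS, and both MCS libraries were above both 2D libraries. In HT29 this ratio was 26.5 and 49.6 in 2D and 51.0 and 102 in MCS. Both MCS libraries were above both 2D libraries there too, though narrowly (51.0 against 49.6). All arm ratios given here were taken directly from the counts, with nothing added to them.

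The 3p arms also separate both sources of let-7f-5p. In DLD1, let-7f-2-3p, from chromosome X, had 10.3 and 10.5 CPM in 2D and 27.8 and 26.7 CPM in MCS, a log2 fold change of 1.38 (SE 0.34, edgeR adjusted p = 3.85e-04), which was lost in the fit of all 8 libraries (edgeR adjusted p = 0.104). By contrast let-7f-1-3p, from chromosome 9, had 68.9 and 63.7 CPM in 2D and 40.8 and 55.6 CPM in MCS, a log2 fold change of -0.46 (SE 0.29, edgeR adjusted p = 0.195). The ratio of let-7f-1-3p to let-7f-2-3p was 6.67 and 6.05 in 2D and 1.47 and 2.08 in MCS. In HT29 it was 1.10 and 0.666 in 2D and 0.613 and 0.778 in MCS, and the cultures overlapped. The neighbour of MIRLET7F2, miR-98-3p, had 61.0 ± 1.21 CPM in 2D and 59.5 ± 12.3 CPM in MCS of DLD1 (SD, n = 2). From MIRLET7A2 on chromosome 11, let-7a-2-3p had 14 and 12 counts in DLD1 2D, 2 and 0 in DLD1 MCS and 0 in all HT29 libraries.

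The products of the chromosome 9 cluster had different calls in DLD1. Among them, let-7d-5p was not called, let-7d-3p had a log2 fold change of -0.19 (edgeR adjusted p = 0.519) and let-7f-1-3p one of -0.46, while let-7a-5p and let-7a-3p, which chromosome 22 can also supply, and let-7f-5p, which chromosome X can also supply, were up-regulated. On chromosome 22, let-7b-5p was up-regulated and let-7b-3p was not called.

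Other miRNAs that share a primary transcript with a let-7 hairpin were examined as 7 cluster partners from the miR-99, miR-100, miR-125 and miR-4763 families. Of these 4 were tested in DLD1 and 3 in HT29. In DLD1 miR-99b-5p, the neighbour of let-7e, was down-regulated in MCS, with 339 and 343 CPM in 2D and 179 and 257 CPM in MCS and a log2 fold change of -0.64 (SE 0.24, edgeR adjusted p = 0.0195). It was called under 8 of the 10 alternatives, in which the edgeR or DESeq2 adjusted p was at most 0.700. Without MCS replicate 1 its adjusted p was 0.0681. The partners miR-100-5p, miR-125a-5p and miR-125b-5p had log2 fold changes of 0.14, 0.33 and 0.32 in DLD1 and were not called.

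In HT29 0 of the 3 tested partners were called by edgeR's quasi-likelihood test. The neighbour of let-7a-2, miR-100-5p, had 539 and 58.0 CPM in 2D and 14.6 and 4.42 CPM in MCS, a log2 fold change of -4.98 (SE 1.18, edgeR adjusted p = 0.642). For miR-100-5p the call was made without HT29 2D replicate 2 (edgeR adjusted p = 1.10e-06), by edgeR without the filter on low counts (adjusted p = 6.07e-08), by DESeq2 (adjusted p = 7.76e-05) and by edgeR's exact test (adjusted p = 0.0292), and without HT29 2D replicate 1 its log2 fold change was -2.63. Neither let-7a-5p, which MIRLET7A2 can also give, nor any other member was called there. The levels of miR-99b-5p in HT29 were 151886 and 20008 CPM in 2D and 37401 and 13465 CPM in MCS, and the cultures overlapped.

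The members varied together over the libraries only in part. For the 36 pairs of members, Pearson's r of log2(normalized CPM + 1), centred on the mean of each cell line, was above 0 for 28 pairs over the 8 libraries. It was highest for let-7b-5p and let-7c-5p (0.96) and lowest for let-7e-5p and let-7i-5p (-0.71). Every pair with r below 0 held let-7i-5p, and among the pairs without let-7i-5p the lowest r was 0.35, for let-7b-5p and let-7e-5p. Among 242 other miRNAs that averaged 10 CPM or more in each cell line, those most like the mean of the members were miR-152-3p (r = 0.98), miR-191-5p (0.98), miR-28-5p (0.97), miR-4791 (0.95) and miR-151a-5p (0.95). Their log2 fold changes in DLD1 were 0.94, 0.77, 0.79, 1.69 and 0.52, and in HT29 -0.23, -0.06, -0.31, 0.07 and -0.25. All values of a library share its scaling factor, and the gap between replicates was larger in HT29, so that these correlations describe the 8 libraries only.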

How the data were processed

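The deposited values are raw counts of reads for each mature miRNA of miRBase, neither normalized nor pooled. The authors had trimmed adapters and random end bases with Cutadapt and mapped the reads with Bowtie2 to GRCh37/hg19 and to the miRBase sequences. The submitters' processing notes name cutadapt 1.11, Bowtie2 2.1.0, CASAVA 1.8.3 and edgeR 3.4.2. Use of strand is not given in the sources used here. The tables of single libraries and the joint table were compared at 12572 values, and 0 differed. A further 15 entries that name no miRNA (2590 counts, 0.00988% of HT29 2D replicate 2) were left out.

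Groups were taken from the labels. Counts were fitted in R 4.3.3 with edgeR 4.0.16 (limma 3.58.1 loaded), for each cell line on its own, with upper quartile factors over miRNAs with at least 1 count in the line. MiRNAs that averaged 10 CPM or more were tested by the quasi-likelihood test, with Benjamini-Hochberg adjustment over all of them. In DLD1 the spread of each miRNA was taken wholly from the trend over all miRNAs, so that a member's own scatter did not enter its p-value. The interaction of cell line and culture was fitted over all 8 libraries. The level of 95% applies to Wilson intervals, whose bounds lay at most 0.181 percentage points from the shares of the family. Tables were made with Python 3.11.15, numpy 2.4.6, pandas 2.3.3 and scipy 1.17.1, and figures with matplotlib 3.10.9. The fits were tested on simulated data.

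All 9 members are named, with the 3p arms of their hairpins, cluster partners of other families, other miRNAs with the same seed, and the 5 miRNAs of the highest correlation with the members' mean. The members and lists were chosen with earlier results of these data known. Hairpin positions are from a GENCODE annotation of GRCh37 and mature sequences from RefSeq, which held all 9 members. The alternatives were other scalings (TMM, RLE, library totals, upper quartile over tested miRNAs), edgeR's exact test, DESeq2 1.42.0 with upper quartile factors, other filters and call rules, all libraries in 1 fit, the replicate number as a block and each library left out. A robust estimate of spread was added after seeing the data.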

Additional observations from a re-analysis of the deposited data

How the results depend on the processing

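Of the single-member results under all alternatives, 363 kept direction and side of the threshold, 53 changed direction, 12 lost a call and 4 gained one, and every change of direction was in a value that had not been called. The number of members called in DLD1 was 4 and became 1 (let-7b-5p) with all 8 libraries in 1 fit, and it was 3 or 4 otherwise and without each library in turn. Of all 346 miRNAs tested in DLD1, 41.3% were called in the fit of DLD1 alone and 8.96% with all 8 libraries in 1 fit. The share was between 39.9% and 41.3% with the other scalings, DESeq2, the exact test, the replicate block and the robust spread. In HT29 the number of members called was 0 under every alternative run. The number of members with a different response was 0 and became 1 (let-7b-5p) with DESeq2 and with the unadjusted p. The unadjusted edgeR p was under 0.05 for 9.2% of all 250 miRNAs tested, and with DESeq2 such a share was not counted. Where an alternative changed a value, the cause was not tested. When a library is left out, its values are removed and the number of libraries falls, and these effects were not separated. With 2 libraries in a group, the spread between them limits what could be detected, and in HT29 let-7c-5p was too rare to be tested. The effect of depth was not tested. A fit without a library leaves a single library in its culture, which is assumed to vary like the others.

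With TMM, RLE, library totals and an upper quartile over tested miRNAs alone, respectively, the DLD1 log2 fold change was -0.15, -0.060, -0.31 and -0.38 for let-7e-5p and -0.13, -0.048, -0.31 and -0.39 for let-7i-5p, and with TMM, library totals and that upper quartile it was -0.015, -0.18 and -0.25 for let-7d-5p and -0.033, -0.21 and -0.28 for miR-98-5p. The log2 ratio of the summed level in DLD1 fell from 0.95 to 0.56 with library totals and 0.48 with the upper quartile over tested miRNAs, and was between 0.74 and 1.13 without each library in turn. In HT29 it was -0.17, became 0.19 with library totals and was between -0.76 and 0.88 without each library in turn, with the highest value without 2D replicate 1. In HT29 the log2 fold change became -0.059 for let-7a-5p and -0.12 for let-7e-5p with the upper quartile over tested miRNAs, -0.00094 for let-7e-5p with all 8 libraries in 1 fit, and 0.21 for both let-7f-5p and let-7g-5p with library totals. The difference in response became 0.16, 0.12, 0.68 and 0.53 for let-7e-5p with the 4 scalings in the order above, and 0.13 for let-7g-5p and 0.15 for miR-98-5p with library totals.

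Without each library in turn, the DLD1 log2 fold change was between -0.057 and 0.20 for let-7d-5p, -0.25 and 0.15 for let-7e-5p, -0.21 and 0.11 for let-7i-5p and -0.15 and 0.24 for miR-98-5p. In HT29 it was between -0.99 and 1.77 for let-7a-5p, -0.15 and 0.88 for let-7b-5p, -0.14 and 0.90 for let-7d-5p, -1.08 and 1.42 for let-7e-5p, -1.25 and 1.52 for let-7f-5p, -0.75 and 0.55 for let-7g-5p and -1.23 and 0.76 for miR-98-5p. The difference in response was between -2.47 and 0.24 for let-7a-5p, -0.27 and 0.73 for let-7d-5p, -1.05 and 1.40 for let-7e-5p, -1.85 and 0.87 for let-7f-5p, -1.16 and 0.10 for let-7g-5p and -1.36 and 0.61 for miR-98-5p.

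Libraries of the cultures share replicate numbers, but no label ties the libraries of a number to each other, and a cell line has only 2 such pairs. The deviations of same-numbered libraries from their culture means correlated with r = 0.32 over 346 miRNAs in DLD1 and r = 0.79 over 301 in HT29. With the replicate number as a block, 3 members were called in DLD1 (let-7a-5p, let-7b-5p and let-7c-5p) and 0 in HT29. Of all tested miRNAs 40.2% were then called in DLD1, while all calls in HT29 moved from 0 to 47 of 301 miRNAs. The number of members with a different response moved from 0 to 2 under the block (let-7a-5p with edgeR adjusted p = 0.0278 and let-7b-5p with 0.0049), the HT29 log2 fold change of let-7f-5p became 0.053, and the difference in response of let-7e-5p became 0.051. The share of all tested miRNAs with a different response under the block was not counted.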

Other observations

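Of the mature miRNAs in the sequence table, 11 carry the let-7 seed, the 9 members included. The other 2 were nearly absent. In DLD1, miR-4458 had 26 and 64 counts in 2D and 17 and 18 counts in MCS, and in HT29 it had 1 and 4 counts in 2D and 1 and 2 counts in MCS. For miR-4500 the table held 1 count, in DLD1 2D replicate 2, and 0 in the other libraries. The related miR-202-3p, which shares 6 of the 7 seed bases, was not analysed here.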
